A study of Mus musculus with 2 samples.

Results

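The genes described here are the Indian hedgehog pathway of the pre-implantation mouse uterus and COUP-TFII, which is encoded by Nr2f2. They were taken by symbol from a deposited table of 14678 genes, and all 9 listed genes were present: the ligand Ihh, the receptor genes Ptch1 and Smo, the transcription factor genes Gli1, Gli2 and Gli3, the inhibitor genes Hhip and Sufu, and Nr2f2. Uterine RNA at gestation day 2.5 (G2.5) was profiled by digital gene expression (DGE), in which short sequence tags are counted per gene. All mice carried the genotype VEGFtetO/tetO/beta-AKtg/wt, that is, tet operator sites in both Vegf alleles and a transgene for the tetR-Krab repressor. The repressor is driven by the β-actin promoter in all tissues, so that its action was not limited to the uterus. VEGF-normal mice (Dox+) stayed on chow with doxycycline, which releases the repressor, and VEGF-repressed littermates (Dox−) were moved to chow without it at about weaning. Both groups were mated to VEGFtetO/tetO males. The effect of doxycycline itself and that of the VEGF level cannot be told apart in this design. For each condition RNA of 3 uteri was pooled into 1 library, so that no spread between animals is known and no test between the conditions was possible.

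Indian hedgehog is a secreted ligand made by the uterine epithelium under the control of progesterone. It binds Patched receptors on stromal cells, which frees Smoothened from inhibition and lets the GLI transcription factors act on target genes such as Gli1, Ptch1 and Hhip. In the uterus this signal acts through COUP-TFII in the stroma, and both are known to be needed for implantation and decidualization.

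Levels are given as copies, the number of tags of a gene in a library, and as TPM, the copies per 1000000 clean tags. The total of clean tags implied by the table was 5985925 in Dox+ and 5844314 in Dox−, of which 74.1% and 72.2% were assigned to the listed genes. Fold changes compare the share of a gene in both libraries, and their 95% intervals are exact Clopper-Pearson intervals that cover counting error only. The 6547 genes whose copies in both libraries added up to 200 or more were compared, at a limit of 1.5-fold. Vegfa, the repressed gene, had 247 copies in Dox+ and 125 in Dox−, and was 1.93-fold lower (1.55 to 2.41). In bulk tissue, fewer cells of a type and less RNA per cell cannot be told apart.

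The 250 bases before the start of Ihh and of Nr2f2 are shown because the first gene differed most between the libraries and the second is the stromal factor of the pathway. They are RefSeq sequences (GRCm38.p6), each matched at 1 place on NCBIM37, the assembly called mm9, where the Ihh window is chr1:74998247-74998496 and the Nr2f2 window chr7:77511633-77511882, both on the minus strand. Capitals mark the GC box letters GGGCGG or their reverse complement CCGCCC, and bases run 5′ to 3′ toward the gene.
Ihh: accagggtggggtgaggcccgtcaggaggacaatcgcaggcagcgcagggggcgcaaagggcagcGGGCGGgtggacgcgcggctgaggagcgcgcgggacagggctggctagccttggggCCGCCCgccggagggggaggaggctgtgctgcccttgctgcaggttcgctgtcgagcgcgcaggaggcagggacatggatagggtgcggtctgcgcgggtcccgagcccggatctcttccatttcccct
Nr2f2: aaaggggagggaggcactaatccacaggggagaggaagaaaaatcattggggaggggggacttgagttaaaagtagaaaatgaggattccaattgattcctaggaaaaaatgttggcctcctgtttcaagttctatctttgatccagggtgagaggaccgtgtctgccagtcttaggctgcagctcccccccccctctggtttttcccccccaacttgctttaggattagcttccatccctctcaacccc
The Ihh window had a GC content of 72.0% and 2 GC boxes, at 185 and 129 bases before the start, and the Nr2f2 window had 50.0% and none. The median over 32851 promoter windows was 52.4%, and 32.7% of them held a GC box. RefSeq windows were at hand for 8 of the 9 genes, all but Gli1. Beside Ihh, the windows of Ptch1, Gli2, Gli3, Hhip and Sufu held a GC box, and those of Smo and Nr2f2 did not. The GC content of Ptch1 (78.4%), Hhip (76.0%) and Gli3 (72.8%) was above that of Ihh, and that of Smo, Gli2 and Sufu below it. None of these 8 held the GLI motif GACCACCCA on either strand, which 0.225% of all windows held. The COUP-TF half-site AGGTCA, found in 14.0% of all windows, and the GATA motif AGATAA, found in 9.99%, were also in none of the 8. The steroid receptor half-site AGAACA was found in 16.1% of all windows and in 1 of the 8, that of Sufu. Sufu also held the SOX motif ACAATAG, found in 2.08%. The TATA box letters TATAAA, in 12.4% of all windows, were in none of the 8.

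Ihh, on chromosome 1 from 74991891 to 74998246 (NCBIM37, minus strand), was counted 646 times in Dox+ uteri and 37 times in Dox− uteri. This is 107.9 TPM (95% counting interval 99.8 to 116.6) against 6.33 TPM (4.46 to 8.73). Ihh was thus at 5.87% of its Dox+ level in Dox−, 17.0-fold lower (12.2 to 24.4). The intervals of the levels lie far apart. Among the 6547 genes compared, Ihh had the 10th lowest ratio, and 0.26% of them were at least 10-fold lower in Dox−, while 1.79% were at least 3-fold lower.

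**Figure D1:**
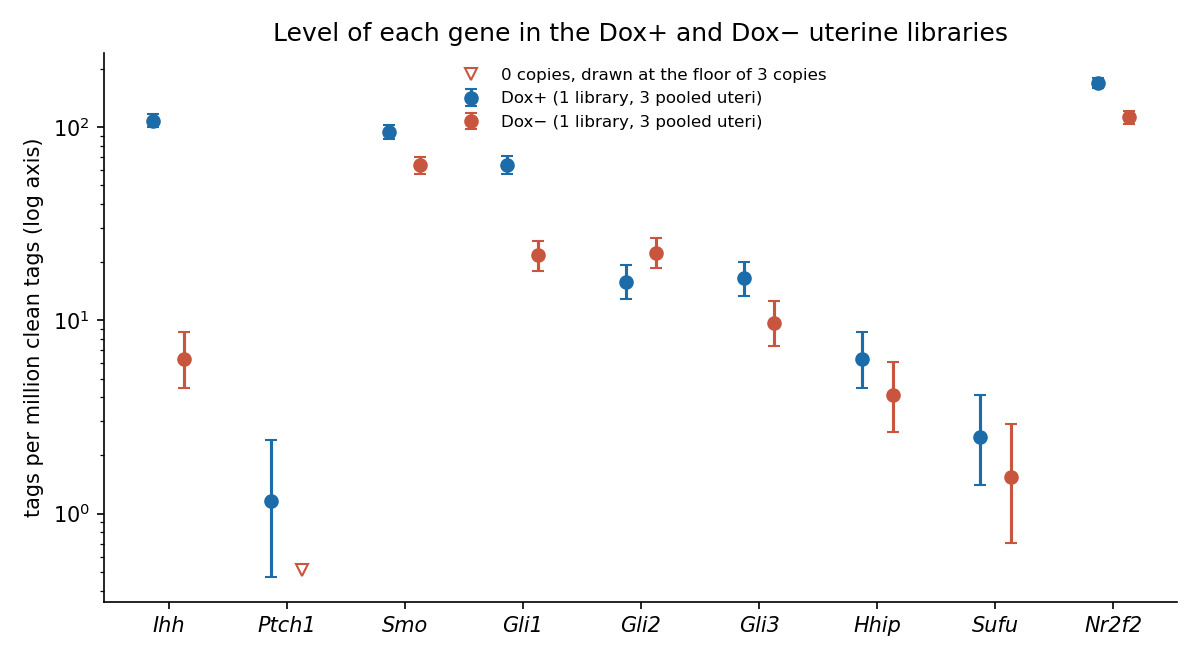
Level of each of the 9 genes in TPM (log axis) in the Dox+ (blue) and Dox− (red) library, with exact Poisson 95% intervals of the copies; the open triangle marks Ptch1 in Dox−, with 0 copies, at the floor of 3 copies. Ihh stands at 107.9 TPM in Dox+ and 6.33 TPM in Dox−, while Gli2 alone is higher in Dox−.

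Of the receptor genes, Smo could be followed with more certainty than Ptch1. Smo, which encodes the membrane protein that transmits the signal (chromosome 6, 29685694 to 29711365, with a pseudogene, Gm13717, over 365 of its bases on the same strand), had 565 copies in Dox+ and 371 in Dox−, or 94.4 and 63.5 TPM. It was 1.49-fold lower (1.30 to 1.70), just short of the limit of 1.5-fold. Ptch1, the Patched receptor (chromosome 13, 63610261 to 63674474), had 7 copies in Dox+ and 0 in Dox−. With Dox− set to a floor of 3 copies (0.513 TPM), Ptch1 was 2.28-fold lower, and its counting interval began at 1.41-fold. Its Dox+ level was 1.17 TPM (0.470 to 2.41), above only 10.7% of the genes detected there, and this depth cannot show how much it differed.

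The GLI genes did not move together. Gli1, an activator whose own transcription follows hedgehog signaling (chromosome 10, 126766945 to 126778645), had 382 copies in Dox+ and 127 in Dox−, or 63.8 and 21.7 TPM. It was 2.94-fold lower in Dox− (2.40 to 3.62), with the 122nd lowest ratio of the genes compared. Gli2, the main activator acting first on the signal (chromosome 1, 120730709 to 120950196), had 95 copies in Dox+ and 131 in Dox−. It was 1.41-fold higher in Dox− (1.08 to 1.86), below the limit, and was the only one of the 9 genes with a higher share in Dox−. Gli3, mostly a repressor (chromosome 13, 15555068 to 15821859), had 99 copies in Dox+ and 57 in Dox−, too few for the comparison. Its ratio was 1.70-fold lower (1.21 to 2.39).

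As a share of the tags of the GLI genes, which does not depend on how the libraries are scaled, Gli1 held 66.3% of 576 tags in Dox+ (exact binomial interval 62.3 to 70.2) and 40.3% of 315 tags in Dox− (34.9 to 46.0). The share of Gli2 was 16.5% in Dox+ (13.6 to 19.8) and 41.6% in Dox− (36.1 to 47.2). The share of Gli3 was 17.2% and 18.1%, with intervals that overlap. Gli1 and Gli2 shares thus differed between the libraries by more than counting error and that of Gli3 did not. The 3′ ends of Gli1 and Arhgap9 overlap by 55 bases on opposite strands. Arhgap9, named because of this overlap, had 17 copies in Dox+ and 42 in Dox−, opposite in direction to Gli1. Whether the table counts sense tags alone is not given in the sources used here.

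Both inhibitor genes had few tags. Hhip, a decoy receptor that binds hedgehog ligands at the cell surface (chromosome 8, 82490014 to 82581905), had 38 copies in Dox+ and 24 in Dox−. Sufu, which holds GLI proteins inactive (chromosome 19, 46471386 to 46563294), had 15 and 9 copies. The ratios were 1.55-fold lower (0.904 to 2.69) for Hhip and 1.63-fold lower (0.667 to 4.22) for Sufu. Both intervals include 1, so that a difference was not detectable at this depth.

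Nr2f2, which encodes the orphan nuclear receptor COUP-TFII (chromosome 7, 77496832 to 77511621), had the most copies of the 9 genes, 1012 in Dox+ and 660 in Dox−. Its level was 169.1 TPM in Dox+ (158.8 to 179.8) and 112.9 TPM in Dox− (104.5 to 121.9). It was 1.497-fold lower (1.36 to 1.65), also just short of the limit. Nr2f2 and Smo differed by more than counting error, and their intervals overlap each other and lie apart from those of Ihh and Gli1. Of the other COUP-TF genes, Nr2f6 had 1157 and 1528 copies and was 1.35-fold higher in Dox−. Nr2f1, with 44 and 18 copies, was too low to be compared.

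**Figure D2:**
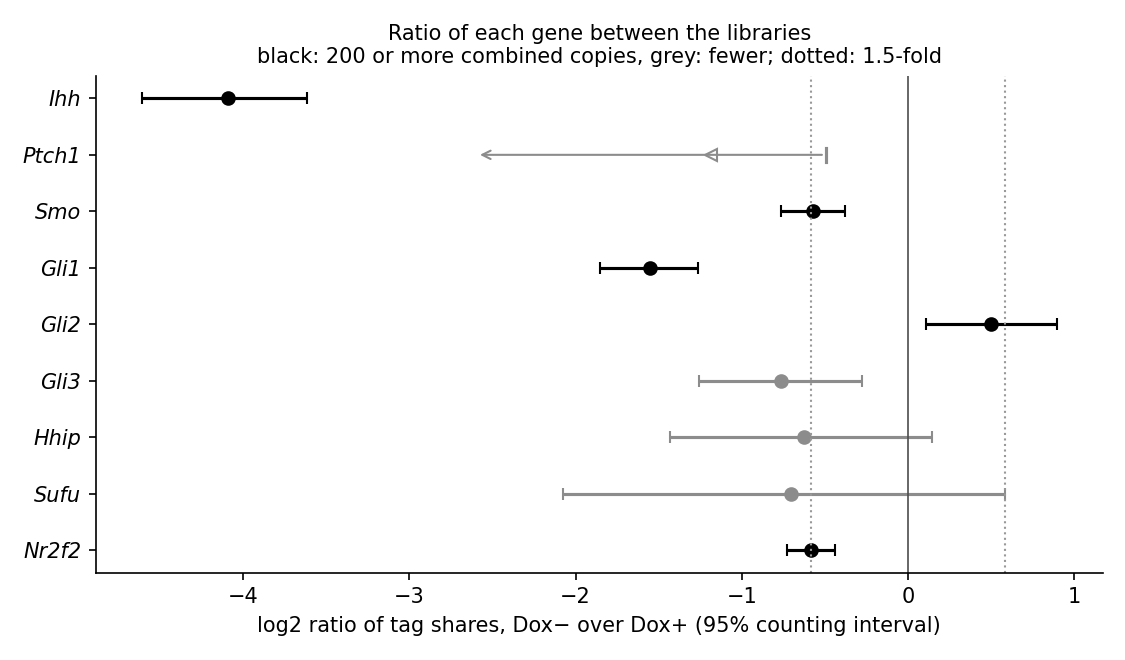
Log2 ratio of each of the 9 genes, Dox− over Dox+, with exact 95% intervals of counting error; genes with at least 200 combined copies are black, the others grey, the dotted lines mark 1.5-fold and the open arrowhead is the bound for Ptch1. Ihh lies at -4.09 and Gli1 at -1.55, Smo and Nr2f2 lie at the dotted line with -0.57 and -0.58, and Gli2 is to the right of 0 at 0.50.

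Of the 9 genes, 5 had enough copies to be compared, and 2 of these, Ihh and Gli1, were at least 1.5-fold lower. Over all genes compared, 14.7% were at least 1.5-fold lower, 15.2% at least 1.5-fold higher, and 29.9% either way. These 5 genes had a median log2 ratio of -0.58, beside 0.03 over all genes. A share below that of Dox+ was seen for 4 of the 5 genes and for 47.9% of all genes compared. When the libraries were scaled by TMM or by the median of ratios, Nr2f2 and Smo passed the limit and 4 of the 5 genes were called lower. Their log2 ratios were then -0.61 and -0.60 with TMM, so that the call rests on a small step.

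**Figure D3:**
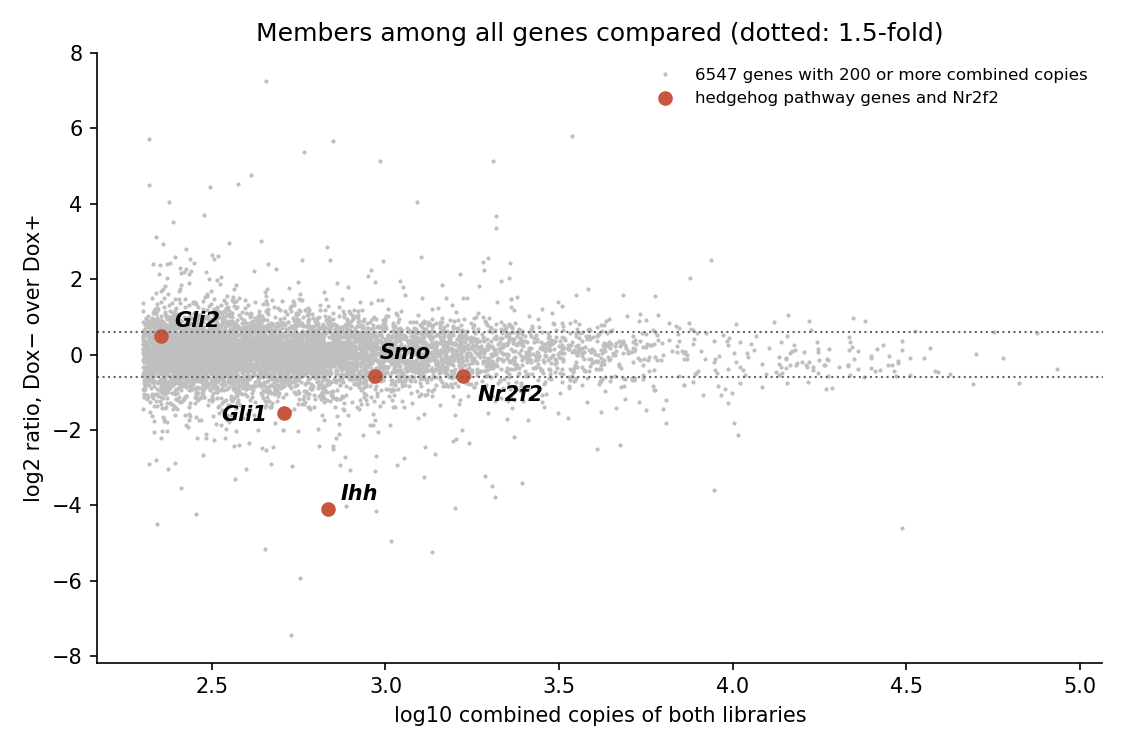
Log2 ratio, Dox− over Dox+, against the log10 of the combined copies for the 6547 genes compared (grey) and the 5 compared genes of the pathway (red), with dotted lines at 1.5-fold. Ihh lies at the lower edge of the cloud, Gli1 outside the dotted lines, and Gli2, Smo and Nr2f2 within or at them.

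To set levels of different genes side by side, TPM was also divided by the length of the longest coding transcript in kb. In Dox+ the order was Ihh (43.8 TPM per kb), Nr2f2 (40.1), Smo (24.98), Gli1 (17.4), Gli2 (2.39), Gli3 (2.02), Hhip (1.39), Sufu (0.554) and Ptch1 (0.272). The counting intervals of Ihh and Nr2f2 overlap, as do those of Gli2 with Gli3, Gli3 with Hhip, and Sufu with Ptch1. In Dox− Nr2f2 stood first (26.8), followed by Smo (16.8), Gli1 (5.93) and Gli2 (3.38), and then by Ihh (2.57). On this scale Ihh stood first in Dox+, which it did not in TPM, and it lay below Gli2 in Dox−. In TPM without the division, Nr2f2 stood first in both libraries, and Ihh came after it in Dox+, with an interval that overlaps that of Smo. In Dox− Ihh, at 6.33 TPM, then lay below Gli3 too, at 9.75 TPM, with overlapping intervals. Per kb, but not in TPM, the intervals of Gli2 and Ihh overlap in Dox−. Those of Gli3 with Hhip and of Hhip with Sufu also overlap per kb there. In tag profiling, which the methods describe, each transcript gives 1 tag, and the division by length understates long transcripts. The order in TPM is then the one to read. The first place of Ihh per kb in Dox+ rests on its short transcript, 2466 bases against 4220 for Nr2f2.

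Cell type markers were followed beside these genes. The counts in these and the later lists stand beside those over all genes compared, of which 14.7% were at least 1.5-fold lower and 15.2% higher. All 14 epithelial markers had tags in both libraries, and their summed level was 1463 TPM in Dox+ and 2093 TPM in Dox−. Of the 14, 7 were at least 1.5-fold higher in Dox−. At least 1.5-fold lower were 2, Cldn3 (1482 and 494 copies) and Cldn4 (149 and 65). Krt19 had 1554 and 2046 copies and Cldn7 877 and 2263. Per 1000 tags of these markers there were 73.8 tags of Ihh in Dox+ and 3.02 in Dox−, so that Ihh was 24.4-fold lower relative to them. The lower Ihh level was not accompanied by a lower sum of these epithelial markers, which went both ways.

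The 12 stromal markers, all with tags in both libraries, had a summed level of 9913 and 11810 TPM in Dox+ and Dox−, most of it from Col1a1 with 23017 and 33696 copies and Col3a1 with 18514 and 17098. Of the 12, 5 were at least 1.5-fold lower and 2 at least 1.5-fold higher. Per 1000 tags of this list Nr2f2 had 17.1 tags in Dox+ and 9.56 in Dox−, 1.78-fold lower, and Gli1 6.44 and 1.84, 3.50-fold lower. These values rest on the collagens. Without Col1a1, Col1a2 and Col3a1, an alternative chosen after seeing the data, the other 9 markers went from 13015 to 8600 copies, or from 2174 to 1472 TPM. Relative to these 9, Nr2f2 was 1.01-fold lower (77.8 and 76.7 tags per 1000), Smo also 1.01-fold lower, and Gli1 1.99-fold lower (29.4 and 14.8 tags per 1000). Nr2f2 and Smo were thus lower by the same size as this sum, which depends on the markers chosen. This match holds only with Hoxa10, Hoxa11 and Hand2 in the sum. In copies, the falls of Hoxa10 (3120 and 1060), Hoxa11 (2573 and 785) and Hand2 together exceeded the fall of the sum. These genes are also listed below as acting with or after Ihh and COUP-TFII. Of the rest, named to show the make-up of the sum, Vim, Pdgfra, Twist2 and Tcf21 were lower. Lum (1549 and 2779 copies) and Dcn (1146 and 1407) were higher, and the rest together did not fall. Whether Nr2f2 and Smo followed the stromal content was not tested. The transcription factor genes Hand2, Hoxa10 and Hoxa11 were among the 5 lower ones. Hand2 had 985 copies in Dox+ and 143 in Dox−, and was 6.73-fold lower (5.64 to 8.07).

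Smooth muscle markers, all 9 with tags, had a summed level of 6539 and 4507 TPM, and Tagln had 11417 and 8854 copies and Actg2 7436 and 5086. The 10 endothelial markers summed to 248 and 174 TPM, with 446 and 216 copies of Cdh5 and 243 and 253 of Pecam1. The 9 leukocyte markers summed to 134 and 196 TPM, with 224 and 446 copies of Laptm5 and 211 and 158 of Tyrobp. None of the markers was at 0 in either library. The part of these cell types in the levels of the 9 genes was not tested.

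Ligand release and reception are further shaped by proteins at the cell surface. Of 9 listed genes of ligand production and release, those in the table were 7, and 2 could be compared, and these went opposite ways. Scube1, of the family of secreted proteins that release hedgehog ligands, was 2.43-fold higher in Dox−, with 956 and 2265 copies. Gpc3, a glypican that binds hedgehog ligands and restrains signaling, was 3.31-fold lower (2.76 to 3.99), with 515 and 152 copies. Dhh, the other hedgehog ligand in the table, had 19 and 10 copies.

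Of 5 listed co-receptor genes, 3 could be compared, and all 3 had a lower share in Dox−, 2 of them by at least 1.5-fold. Gas1 had 978 and 707 copies and was 1.35-fold lower, within the limit, while Cdon, with 219 and 134 copies, was 1.60-fold lower. Lrp2, which encodes the endocytic receptor megalin, had 534 copies in Dox+ and 0 in Dox−. With a floor of 3 copies it was 173.8-fold lower, and its interval began at 140.8-fold. Boc, a cell surface protein that binds hedgehog ligands, had fewer than 200 combined copies and is named because of its values. It had 123 copies in Dox+ and 31 in Dox−, 3.87-fold lower (2.59 to 5.95).

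Inside the cell no common direction was seen. Of 20 listed intracellular regulators, 12 could be compared, of which 3 were at least 1.5-fold higher, none lower, and 6 were below and 6 above their Dox+ share. Their median log2 ratio was -0.03. The kinase gene Csnk1e was 2.39-fold higher (69 and 161 copies), the kinase gene Adrbk1 1.56-fold higher (196 and 299) and the ubiquitin ligase gene Fbxw11 1.53-fold higher (160 and 239). Prkar1a, a subunit of protein kinase A, which marks GLI proteins for processing, had 1549 and 1669 copies, and Csnk1d 857 and 629. Over all 34 listed genes of release, co-reception and intracellular regulation, 17 could be compared, with 3 lower, 4 higher and a median of -0.37.

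Hedgehog signaling of vertebrates passes through the primary cilium. All 23 genes listed under the cilium were in the table, and 6 had enough copies, with a median log2 ratio of -0.48, 2 lower and none higher. Fkbp8, listed as a negative regulator of the pathway rather than as a part of the cilium, was 1.93-fold lower (1605 and 814 copies). Kif3b, a subunit of the motor that moves cargo into the cilium, was 1.53-fold lower (218 and 139). Tulp3, also among those with the most copies, had 219 and 247.

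Other genes known as hedgehog targets in various tissues showed no common direction. Of 13 present 7 could be compared, with 2 lower, 1 higher and a median of -0.14. Igfbp6 was 2.39-fold lower (2001 and 819 copies), and Snai1 2.24-fold lower (163 and 71). Mycn, a proliferation factor, was 21.9-fold higher in Dox− (14 and 299 copies). Ccnd1, which encodes cyclin D1, had 912 and 806 copies.

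Regulation before Ihh in the uterus was followed with a list of 12 genes, mostly of steroid receptors, cofactors and transcription factors. The list also held Egfr, a growth factor receptor gene, and Fkbp5, which is a response gene and not known here as a regulator of Ihh. Of the 10 with enough copies, 4 were at least 1.5-fold lower and 2 higher, and the median log2 ratio was -0.40. Pgr, the progesterone receptor gene, had 687 copies in Dox+ and 1251 in Dox−, 1.87-fold higher, and Esr1, the estrogen receptor gene, 165 and 262, 1.63-fold higher. Lower were Sox17 (1991 and 585 copies, 3.32-fold) and Gata2 (778 and 290 copies, 2.62-fold), both transcription factor genes needed for Ihh expression in the uterine epithelium. Fkbp5, a glucocorticoid and progesterone response gene, was 4.12-fold lower (190 and 45), and Egfr 1.57-fold lower (153 and 95). Fkbp4, a cochaperone of the progesterone receptor, had 1684 and 1406 copies and was within the limit. Both steroid receptor genes, Pgr and Esr1, were thus higher in Dox−, and the transcription factor genes Sox17 and Gata2 lower.

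Of 8 listed genes that act with or after Ihh and COUP-TFII in the stroma, 6 could be compared, with 4 lower, 1 higher and a median of -1.60. Hoxa10 had 3120 and 1060 copies and Hoxa11 2573 and 785, and they were 2.87-fold and 3.20-fold lower. Fst, the activin antagonist follistatin, had 725 and 44 copies and was 16.1-fold lower (11.9 to 22.3), and Hand2, which holds back epithelial growth through stromal FGF genes, is given above. Cebpb, a factor of stromal decidualization, was 2.75-fold higher (258 and 692). Among the other genes, which had fewer than 200 combined copies and are named because of their values, Wnt4 had 0 copies in Dox+ and 18 in Dox−, and Bmp2 had 19 and 15. Hand2, Hoxa10 and Hoxa11 are also counted among the stromal markers.

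Of 5 listed epithelial genes induced by progesterone, none reached 200 combined copies, and their values were seen before they were named. Il13ra2 had 180 copies in Dox+ and 6 in Dox−, 29.3-fold lower (13.2 to 80.9). Areg, an EGF receptor ligand, had 31 copies in Dox+ and 0 in Dox−, Calca, which encodes calcitonin, 37 and 0, and Irg1 37 and 0. With a floor of 3 copies in Dox− the ratios were 10.1-fold lower for Areg and 12.04-fold lower for Calca and for Irg1. The intervals began at 7.73-fold for Areg and at 9.31-fold for Calca and for Irg1. Cyp26a1, a retinoic acid hydroxylase, had 32 and 25 copies, with an interval that includes 1.

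**Figure D4:**
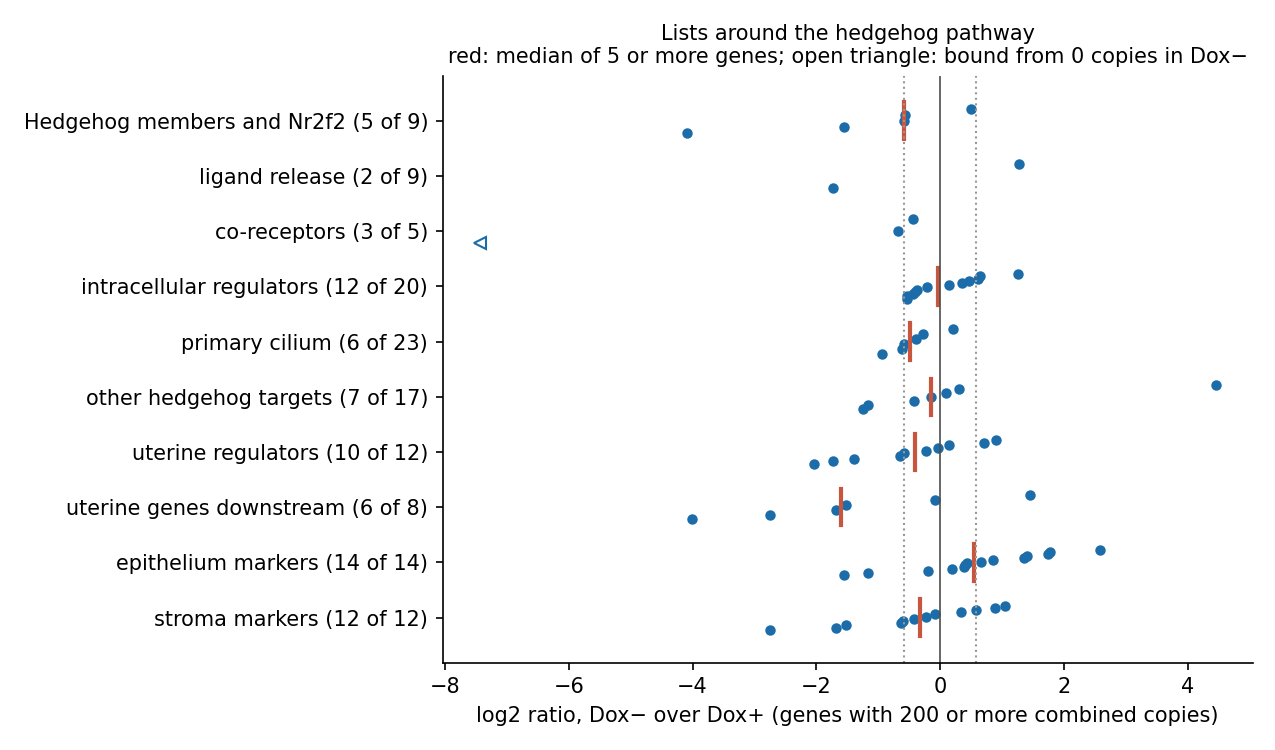
Log2 ratio, Dox− over Dox+, of each gene with at least 200 combined copies (points) in the lists around the pathway, with the number compared of those listed in parentheses; red bars are medians of 5 or more genes, dotted lines mark 1.5-fold and the open triangle is the bound for Lrp2. The list labeled downstream, of genes that act with or after Ihh and COUP-TFII, has the lowest median, -1.60 (-0.91 without a copy number minimum). The epithelial markers have the highest, 0.55.

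The pattern of Ihh over the 2 libraries was most like that of Fst, Maob, Jam2, Sult1a1 and Gm13889, by the Euclidean distance of log2 TPM. Fst was nearest at a distance of 0.30, followed by Maob at 0.61 with 888 and 49 copies and Jam2 at 0.67 with 1007 and 32. Sult1a1, at 0.82, had 477 and 60 copies and Gm13889, at 0.84, had 415 and 54. Nr2f2 had closer neighbours, Snrpc at 0.03, Sgpl1 and Idh3g at 0.06, Etfa at 0.07 and U2af1 at 0.08, with ratios from 1.39-fold to 1.49-fold lower. Over 2 libraries, this likeness holds only a level and a ratio.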

How the data were processed

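Uterine RNA at G2.5 was profiled in 1 Dox+ and 1 Dox− library of 3 pooled uteri each. The authors discarded tags that held adaptor alone, had low quality or occurred a single time, matched the clean tags to mouse mRNAs of build mm9, and assigned the unambiguous ones to genes. The deposited counts are these copies, without normalization. The deposited TPM is the count per 1000000 clean tags, as computed by the authors, without length correction and with 0.01 at a count of 0. The submitters' notes name CASAVA. The aligner and the restriction enzyme are not given in the sources used here, and the sample labels mention mRNA fragmentation where the methods describe tags. No gene had exactly 1 copy. The authors' ratios, P-values and FDR were not used.

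The counts were compared with library sizes recovered from counts and TPM. The 95% intervals, exact Clopper-Pearson (ratios, shares) or Poisson (levels), reflect counting error alone. Folds used a floor of 3 copies per library. Where a library had 0, the counting interval begins below the fold at the floor. With 1 library per group there was no test between conditions. Alternatives were other library sizes (the sum of the counts, TMM of edgeR, the median of ratios), copy number minimums of 0 and 100, a pseudocount of 1, a limit of 2-fold, and an Audic-Claverie FDR below 0.05, which compares these libraries only. Named are all members, listed genes past 1.5-fold, the 2 genes with the most copies of each list, and the 5 nearest genes to Ihh and Nr2f2. The members and lists were chosen with earlier results of these data known. Gene positions and transcript lengths are from GENCODE M1 on NCBIM37. One listed gene is not reported here. The intervals were tested on simulated data. Tools were Python 3.11.15, scipy 1.17.1, R 4.3.3 and edgeR 4.0.16.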

Additional observations from a re-analysis of the deposited data

How the results depend on the processing

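Each of the 9 genes kept its direction under every library size and with a pseudocount of 1, and Ihh stayed between 16.6-fold and 17.5-fold lower and Gli1 between 2.86-fold and 3.01-fold lower. The number of the 9 genes at least 1.5-fold lower was 2, and became 4 with TMM and 4 with the median of ratios, because Nr2f2 and Smo lie next to the limit, and 6 without a copy number minimum, because 9 genes were then compared. With a minimum of 100 copies it was 3 of 6, Gli3 being added. It stayed at 2 with a limit of 2-fold and with an Audic-Claverie FDR below 0.05. Over all genes, 2830 of 13727 were lower and 2869 higher without a minimum. With a minimum of 100 copies 1384 of 8856 were lower and 1472 higher. Of the 6547 genes, 1020 were lower with TMM and 1041 with the median of ratios. At 2-fold 368 were lower and 302 higher, against 961 and 994 at 1.5-fold. Without a minimum the median of the intracellular regulators turned from -0.03 to 0.14, and it was -0.15 with a minimum of 100 copies and 0.004 with the sum of the counts. Without a minimum the median of the other targets was -0.29, that of the cilium genes -0.24, that of the uterine regulators -0.14 and that of the downstream genes -0.91. With a pseudocount of 1 Ptch1 was 7.81-fold lower, which is no bound, and the interval of its ratio began at 1.41-fold. Relative to stromal markers without collagens, Nr2f2 and Smo were each 1.01-fold lower and Gli1 1.99-fold lower. These values depend on Hoxa10, Hoxa11 and Hand2 being in the sum. Depth limits Ptch1, Hhip, Sufu and Gli3. No paired analysis was possible because each condition has 1 library.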

Other observations

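The deposited table itself assigns 31 genes to the smoothened signaling pathway in its GO column, a list added after the data were seen. Of these, 12 had at least 200 combined copies, 2 were at least 1.5-fold lower (Gli1 and Gpc3) and none higher, with a median log2 ratio of -0.25. Over all genes compared, 14.7% were at least 1.5-fold lower, so that 2 of 12 lies near that share, and 15.2% were higher. The 17 genes of the term that are in no list above included 6 with as many copies, all within 1.5-fold, with a median of 0.21. Of these 6, Por, an electron donor of cytochrome P450 enzymes, had 1100 and 1366 copies, and Ctnna1, which encodes a catenin, 578 and 770.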
